A study of Homo sapiens with 6 samples.

Results

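The PIM kinases were examined as a family of 3 genes, *PIM1*, *PIM2* and *PIM3*, among the 28395 genes counted in H146 cells. H146 (NCI-H146) is an established human small-cell lung cancer (SCLC) line. The cells were transfected either with a negative control siRNA (control siRNA, genotype WT, 3 libraries) or with an siRNA against *KIFC1* (KIFC1 siRNA, labelled KIFC1 knockdown, 3 libraries), and RNA was taken on day 2. *KIFC1* encodes a motor protein that gathers extra centrosomes into 2 spindle poles. The labels give 1 KIFC1 siRNA treatment and do not identify the siRNA, so the response to the siRNA itself and the response to loss of *KIFC1* cannot be told apart. The family was chosen by the fall of *PIM1* in this contrast, so the change of *PIM1* is a description here and carries no test. *PIM2* and *PIM3* entered by their family name. The question was how the family's mRNA was divided in control cells, and whether *PIM2* or *PIM3* offset the fall of *PIM1*.

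PIM kinases are serine/threonine kinases of the calcium/calmodulin-dependent kinase (CAMK) group. They fold into an active form without an activating phosphorylation step, so their activity is set largely by how much protein is made and how fast it is lost. Cytokine receptors raise their transcription through JAK kinases and STAT factors, and NF-kB also acts on *PIM1* and *PIM2*. The mRNAs and proteins are short-lived. The 3 kinases share substrates that act in survival, the cell cycle and translation, and in mouse lymphomas that lack *Pim1* viral insertions activate *Pim2*, which is why the family is examined as a whole.

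*PIM1* (NCBI gene 5292) lies on the plus strand of chromosome 6 at 37170152-37175428 (GRCh38), *PIM2* (11040) on the minus strand of chromosome X at 48913182-48919024, and *PIM3* (415116) on the plus strand of chromosome 22 at 49960768-49964072. Each has 6 exons in its canonical GENCODE transcript, with a coding sequence of 942, 936 and 981 bases and a 3' UTR of 1337, 949 and 945 bases, in that order. The messages did not share any run of 32 bases with each other, so reads of that length or longer could be told apart between members. *PIM1* shared 4 of its 2672 runs of 32 bases with transcripts of other genes, while *PIM2* and *PIM3* shared 0. In the annotation no exon of another gene overlapped them. The microRNA gene *MIR6821* lies within *PIM3* on the same strand, outside its exons.

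A 7-base word separates the members and is shown for that reason. An earlier examination of these same libraries had found that genes with GAGATCT in the 3' UTR tended to be lower after KIFC1 siRNA, so the word is not independent evidence. *PIM1* holds 1 copy in the 3' UTR, in exon 6 (chr6:37175351-37175380, plus strand). *PIM2* and *PIM3* hold 0 copies anywhere in the canonical mRNA. The *KIFC1* mRNA holds 1 copy in the coding sequence, in exon 7 (chr6:33405462-33405491, plus strand). Both sites are given from 5′ to 3′ in GRCh38 with the word in capitals.
PIM1: tactgtacaggggaataaaaGAGATCTtat
KIFC1: gctttgtagcaagctacgtaGAGATCTaca
Both sites were picked by the word and aligned on it, so its 7 bases match by choice. With those bases included, the 2 sites share a run of 8 bases and are identical at 10 of 30 positions. These values are therefore not a measure of likeness between the sites.

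The libraries held 15392374 to 17754458 counts and 19437 to 20472 genes with a count. *KIFC1* had 14, 4 and 14 counts in control siRNA replicates 1 to 3, and 1, 1 and 0 counts in the KIFC1 siRNA replicates. These counts do not overlap, and against a floor of 3 counts in each library *KIFC1* was at least 3.24-fold lower after KIFC1 siRNA. Its adjusted p was 0.0739 with edgeR's quasi-likelihood test and 0.00459 with the replicate number as a block. Of the runs of 32 bases in its mRNA, 87.8% also occur on alternate sequences of the reference, against 0.0749% for *PIM1*, and whether those sequences were in the alignment index is not given in the sources used here. Of 10 neuroendocrine SCLC markers, 8 were above 10 normalized counts (CPM, scaled to the library's total) in every library. Over the 10 markers the summed level was 3083 to 3305 CPM in control and 3089 to 3608 CPM after KIFC1 siRNA. Over 11 markers of other subtypes and other cells the sum was 12.2 to 19.0 CPM in control and 14.8 to 16.9 CPM after KIFC1 siRNA.

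In control cells *PIM1* and *PIM3* made up most of the family's mRNA and *PIM2* a small part. Levels of different genes are compared as CPM per kilobase of exon, since a longer message yields more reads. *PIM1* was at 34.5, 36.6 and 30.0 CPM per kb in control siRNA replicates 1 to 3. *PIM3* was at 25.5, 24.0 and 21.8 CPM per kb, and *PIM2* at 5.09, 4.38 and 3.83 CPM per kb. The 3 ranges do not overlap, so the order *PIM1*, *PIM3*, *PIM2* held in every control library. *PIM1* took 54.4% ± 1.72 of the summed level, *PIM3* 38.4% ± 1.29 and *PIM2* 7.14% ± 0.592 (SD, n = 3). Among 14325 tested genes with a known length, whose median control level was 5.02 CPM per kb, *PIM1* stood at percentile 92.0, *PIM3* at percentile 87.5 and *PIM2* at percentile 47.0.

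*PIM1*, the member first found as a site of viral integration in mouse lymphoma, was lower in every KIFC1 siRNA library than in any control library. It had 1740, 1773 and 1670 counts in control and 1041, 1029 and 782 counts after KIFC1 siRNA. Per length these were 33.7 ± 3.38 CPM per kb in control and 20.04 ± 3.67 CPM per kb after KIFC1 siRNA (SD, n = 3). The lowest value, 15.8 CPM per kb, was that of KIFC1 siRNA replicate 3, and the other two KIFC1 siRNA libraries were at 21.9 and 22.4 CPM per kb. The fitted log2 fold change was -0.75 (SE 0.14, 95% interval -1.06 to -0.44), a fold of 0.594. Between libraries of the same replicate number the log2 ratios were -0.65, -0.71 and -0.93. Of all genes tested, 0.771% had a lower log2 fold change. Since this fall chose the family, these values describe it and are not support for it.

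**Figure D1:**
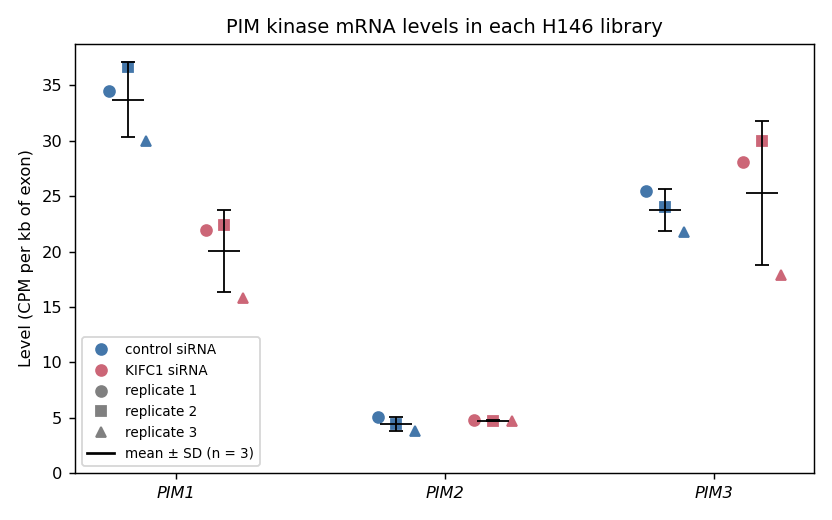
Levels of *PIM1*, *PIM2* and *PIM3* in each library (vertical axis, CPM per kb of exon), with control siRNA in blue, KIFC1 siRNA in red, a marker shape for each replicate number and bars for the mean ± SD of 3 libraries. *PIM1* lies at 30.0 to 36.6 in control and at 15.8 to 22.4 after KIFC1 siRNA, while the 2 groups of *PIM2* and of *PIM3* overlap.

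*PIM2*, which is under strong transcriptional control in blood cells, had 234, 193 and 194 counts in control and 206, 196 and 211 counts after KIFC1 siRNA. Its level was 4.43 ± 0.632 CPM per kb in control and 4.71 ± 0.0502 CPM per kb after KIFC1 siRNA (SD, n = 3). The groups overlap, and every KIFC1 siRNA value lies within the control range of 3.83 to 5.09 CPM per kb. The log2 fold change was 0.09 (SE 0.15, 95% interval -0.24 to 0.42, adjusted p = 0.927, edgeR's quasi-likelihood test over 14777 genes). A change from 0.847-fold to 1.33-fold lies within this interval. Counting error alone was 6.54% to 7.20% of each *PIM2* value. It was 2.37% to 3.58% for *PIM1*.

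*PIM3* had 933, 843 and 879 counts in control and 966, 1001 and 642 counts after KIFC1 siRNA. Per length the KIFC1 siRNA libraries were at 28.1, 30.0 and 17.9 CPM per kb, so replicates 1 and 2 lay above every control library and replicate 3 below every control library. The means were 23.8 ± 1.86 CPM per kb in control and 25.3 ± 6.51 CPM per kb after KIFC1 siRNA (SD, n = 3). The log2 fold change was 0.09 (SE 0.17, 95% interval -0.28 to 0.46, adjusted p = 0.937, edgeR), which spans 0.824-fold to 1.38-fold. KIFC1 siRNA replicate 3 decides this value. Without it the log2 fold change was 0.29 (SE 0.10, adjusted p = 0.135, unadjusted p = 0.0122, edgeR), and without KIFC1 siRNA replicate 2 it was -0.05. The same replicate 3 held the lowest *PIM1* level but not the lowest *PIM2* level, which was 4.68 CPM per kb there and also in replicate 2.

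Of *PIM2* and *PIM3*, 0 passed an adjusted p of 0.05 and 0 had an unadjusted p under 0.05 in edgeR. DESeq2 and limma-voom called 0 of them as well. Over all 14777 genes tested, 48 were higher (0.325%) and 55 were lower (0.372%) after KIFC1 siRNA at that threshold. With background shares this low, 0 calls among 2 genes say little, and the intervals given above are the more useful measure.

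**Figure D2:**
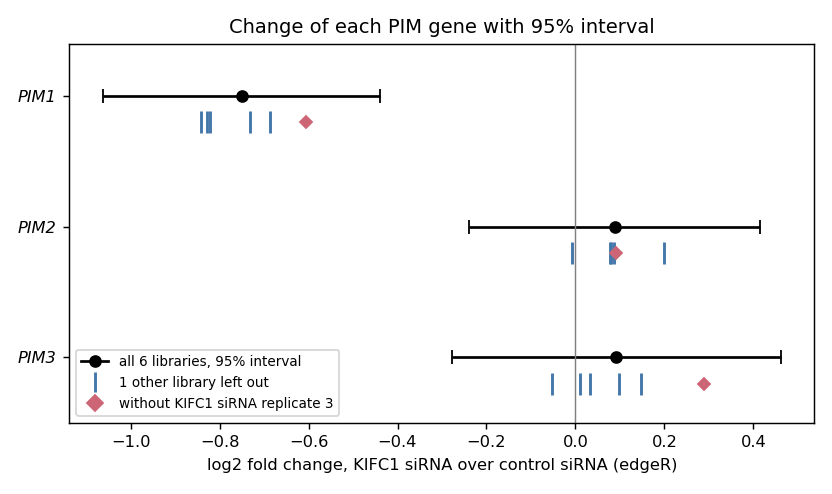
Log2 fold change of each PIM gene after KIFC1 siRNA (horizontal axis), with black points and bars for the edgeR estimate and its 95% interval over all 6 libraries, blue ticks for estimates with 1 other library left out and red diamonds for those without KIFC1 siRNA replicate 3. The intervals of *PIM2* and *PIM3* include 0, and the *PIM3* estimate moves to 0.29 without that library.

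In the KIFC1 siRNA libraries *PIM3*, not *PIM1*, held the largest share of the family's mRNA. After KIFC1 siRNA *PIM1* made up 40.2% ± 0.990 of the summed level, *PIM3* 50.1% ± 3.13 and *PIM2* 9.70% ± 2.18 (SD, n = 3). None of these 3 shares overlapped between the groups, but a fall of *PIM1* raises the other shares by itself. *PIM3* went from below *PIM1* in all 3 control libraries to above it in all 3 KIFC1 siRNA libraries. The ratio of *PIM1* to *PIM3* per kb was 1.35, 1.53 and 1.38 in control and 0.782, 0.746 and 0.884 after KIFC1 siRNA. This crossing held with the length of all exons and with that of the canonical transcript. In CPM with no length *PIM1* remained above *PIM3* in all 3 KIFC1 siRNA libraries. The ratio of *PIM3* to *PIM2*, which *PIM1* does not enter, was 5.40 ± 0.351 in control and 5.38 ± 1.37 after KIFC1 siRNA (SD, n = 3).

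The summed level of the 3 kinases was lower on average after KIFC1 siRNA, with groups that overlap. It was 65.0, 65.0 and 55.6 CPM per kb in control siRNA replicates 1 to 3. After KIFC1 siRNA it was 54.8, 57.0 and 38.4 CPM per kb. Between libraries of the same replicate number the sum was lower after KIFC1 siRNA in all 3 pairs, while across numbers replicate 2 of the KIFC1 siRNA libraries lay above replicate 3 of the control libraries. The means were 61.9 ± 5.43 and 50.1 ± 10.2 CPM per kb (SD, n = 3), a change of -19.1%. Without KIFC1 siRNA replicate 3 the change was -9.67%. The sum holds *PIM1* and was not tested.

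**Figure D3:**
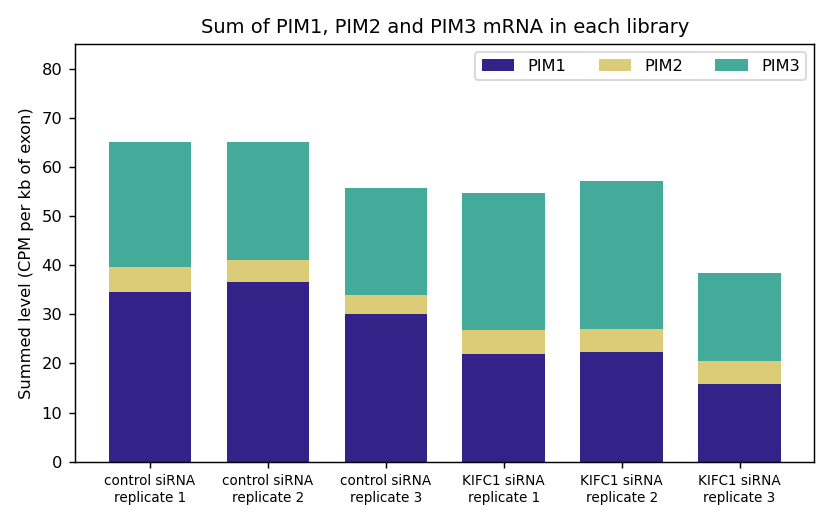
Summed PIM level in each library (vertical axis, CPM per kb of exon, from 0), stacked by gene. The *PIM1* part is larger than the *PIM3* part in each control library and smaller in each KIFC1 siRNA library, and the totals run from 55.6 to 65.0 in control and from 38.4 to 57.0 after KIFC1 siRNA.

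A full offset by *PIM2* and *PIM3* was not seen in the group means. *PIM1* fell by 13.7 CPM per kb. *PIM3* was higher by 1.56 CPM per kb and *PIM2* by 0.277 CPM per kb, which neither passed the test and which together equal 13.4% of that fall. Without KIFC1 siRNA replicate 3 the share was 48.2%, and without KIFC1 siRNA replicate 2 it was -3.30%, since *PIM3* was then lower than in control. To equal the fall alone, *PIM3* would have had to rise 1.58-fold and *PIM2* 4.09-fold. The upper 95% limits, 1.38-fold for *PIM3* and 1.33-fold for *PIM2*, are below these sizes. At those limits *PIM3* would meet 65.5% of the fall and *PIM2* 10.8%. When single libraries were omitted, the upper limit for *PIM3* was 1.25-fold to 1.51-fold. In each case it stayed below the rise that *PIM3* alone would need, which was 1.49-fold to 1.63-fold. A joint limit for *PIM2* and *PIM3* together was not computed, so these values do not bear on a full offset shared by both. These sizes take the *PIM1* fall at its mean, and that fall chose the family. The intervals come from the main fit, which left the replicate numbers out. At the limit of the *PIM1* interval nearest 0 the fall was 8.84 CPM per kb, which a 1.37-fold rise of *PIM3* would equal, a rise just inside the *PIM3* interval. These libraries therefore leave room for a partial offset by *PIM3* and, at that limit, for a full one. Protein amounts were not measured in these data.

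Upstream of the family, 27 genes of JAK and STAT signalling (JAK kinases, STAT factors and cytokine receptors that act through them) were listed and 20 tested. In edgeR 0 were higher and 0 were lower, 2 had an unadjusted p under 0.05, and the median log2 fold change was 0.09 against 0.01 over all genes. For this and the later lists, the background is 1369 of all 14777 genes tested with an unadjusted p under 0.05 in edgeR. *STAT6*, the factor that answers interleukin-4, was at 24.3 ± 1.32 CPM in control and 29.4 ± 1.43 CPM after KIFC1 siRNA (SD, n = 3), with adjusted p = 0.466. Its receptor chain *IL4R* had a log2 fold change of 0.38 (adjusted p = 0.738) and the interferon receptor chain *IFNAR2* one of 0.18 (adjusted p = 0.831). The receptor genes *IL6ST*, *LIFR*, *OSMR*, *IL7R*, *GHR*, *CSF3R* and *PRLR* were too low to be tested. Of 16 STAT feedback inhibitors, all tested, 0 were called in either direction, 2 had an unadjusted p under 0.05 and the median was 0.02. *PTPN2*, a phosphatase that acts on JAK and STAT proteins, had a log2 fold change of 0.30 (adjusted p = 0.388), *SOCS2* one of 0.26 (adjusted p = 0.662) and *SOCS6* one of -0.27 (adjusted p = 0.511). DESeq2 and limma-voom called 0 genes of both lists.

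Other genes under the control of STAT3 and STAT5 were listed as well. Of 18 listed and 15 tested, 0 were called in either direction by edgeR, 3 had an unadjusted p under 0.05, and 12 of 15 had a log2 fold change above 0, with a median of 0.21. *ID1*, an inhibitor of differentiation factors, was at 93.2, 99.05 and 90.9 CPM in control and at 132.1, 151.0 and 113.4 CPM after KIFC1 siRNA. Its groups do not overlap, and its log2 fold change was 0.49 (SE 0.12, adjusted p = 0.112 in edgeR, 0.0183 in DESeq2). *CEBPB*, a factor of the acute-phase response, was at 15.8 ± 2.00 CPM in control and 22.7 ± 3.16 CPM after KIFC1 siRNA (SD, n = 3), with a log2 fold change of 0.52 (adjusted p = 0.186). *IRF1*, an interferon response factor, had a log2 fold change of 0.33 (adjusted p = 0.552). With the replicate number as a block, *ID1* (adjusted p = 0.000543), *CEBPB* (0.00685) and *CCND2* (0.0114) were higher. *CCND2*, which encodes a G1 cyclin, was named after its values were seen and had 3, 11 and 3 counts in control and 15, 27 and 12 after KIFC1 siRNA.

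Of 15 genes for NF-kB and other factors linked to PIM transcription, all tested, 0 were called in edgeR, DESeq2 or limma-voom, 1 had an unadjusted p under 0.05 and the median was -0.04. *FLI1*, an ETS family factor, had a log2 fold change of 0.38 (adjusted p = 0.310, with the block 0.0372). The NF-kB subunits *RELB* and *REL* had log2 fold changes of 0.33 and -0.24, with adjusted p of 0.795 and 0.888. Of 24 genes listed for PIM mRNA and protein turnover (heat shock chaperones, PP2A subunits, RNA-binding proteins), 21 were tested and 0 called by the 3 tools, with 3 at an unadjusted p under 0.05 and a median of 0.02. The mRNA-destabilizing proteins *ZFP36L2* and *ZFP36* had log2 fold changes of 0.42 (adjusted p = 0.193, with the block 0.0198) and 0.24 (adjusted p = 0.777). *ZFP36L1* of the same family, named after its values were seen since it was too low for the naming rule, had one of -0.63 (adjusted p = 0.411, unadjusted p = 0.0239), at 3.58 ± 0.782 CPM in control and 2.31 ± 0.174 CPM after KIFC1 siRNA (SD, n = 3). *ELAVL1*, which stabilizes mRNAs with AU-rich elements, had one of 0.24 (adjusted p = 0.489).

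Of 25 PIM substrates, 24 were tested and 0 called by the 3 tools, with 2 at an unadjusted p under 0.05 and a median of 0.00. *NFATC1*, a transcription factor, had a log2 fold change of 0.49 (adjusted p = 0.257, with the block 0.00472). *CDKN1A*, a cell-cycle inhibitor, was at 57.4 ± 4.40 CPM in control and 48.4 ± 3.42 CPM after KIFC1 siRNA (SD, n = 3), with a log2 fold change of -0.25 (adjusted p = 0.528). *CXCR4*, a chemokine receptor, had one of 0.24 (adjusted p = 0.674). These are mRNA values, and PIM kinases act on the proteins.

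Among kinases that could share the substrates of PIM kinases, 1 gene passed the threshold in edgeR. With the replicate block 1 was higher and 1 was lower. Of 16 listed kinases of the AKT, SGK and ribosomal S6 kinase families with their regulators, 14 were tested, 0 were higher and 1 was lower, with a median of -0.01. *RPS6KA2*, which encodes a p90 ribosomal S6 kinase, was at 43.5, 43.2 and 45.3 CPM in control and at 30.2, 26.7 and 30.4 CPM after KIFC1 siRNA. Its groups do not overlap, and it fell with a log2 fold change of -0.59 (SE 0.11, adjusted p = 0.0338, edgeR). DESeq2 (adjusted p = 0.000976) and limma-voom (0.0373) called it too. Without any 1 library other than KIFC1 siRNA replicate 3 the call was lost, with adjusted p of 0.0882 to 0.228. Its 3' UTR holds 1 copy of GAGATCT, as that of *PIM1* does, and the part of this word in its fall was not tested. *RPS6KA5*, a related kinase of chromatin, had a log2 fold change of 0.53 (adjusted p = 0.198, with the block 0.00708). Its 3' UTR holds 1 copy of GAGATCT and 5 copies of GCAACC, a word that the same earlier examination found in genes that were higher.

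Of 16 other kinases of the CAMK group, to which the PIM kinases belong, 14 were tested and 0 called by edgeR, with 2 at an unadjusted p under 0.05 and a median of 0.04. *PRKAA1*, a catalytic subunit of the energy sensor AMPK, was at 44.5, 42.7 and 39.97 CPM in control and at 64.4, 52.6 and 77.8 CPM after KIFC1 siRNA. Its groups do not overlap, and its log2 fold change was 0.62 (SE 0.14, adjusted p = 0.0828 in edgeR, 0.00769 in DESeq2, 0.000543 with the block). *PSKH1* had a log2 fold change of -0.41 (adjusted p = 0.257, with the block 0.0121). *PASK*, a kinase with a sensor domain, had one of -0.18 (adjusted p = 0.739). Counting each gene once, the 8 lists held 156 genes, of which 138 were tested, 0 were higher and 1 was lower, 17 had an unadjusted p under 0.05 and the median was 0.03. Of all 14777 genes tested, 48 were higher, 55 were lower and 1369 had an unadjusted p under 0.05 in edgeR. With the block 8 of the 138 listed genes were higher and 2 were lower, against 407 and 454 of all 14777 genes tested.

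**Figure D4:**
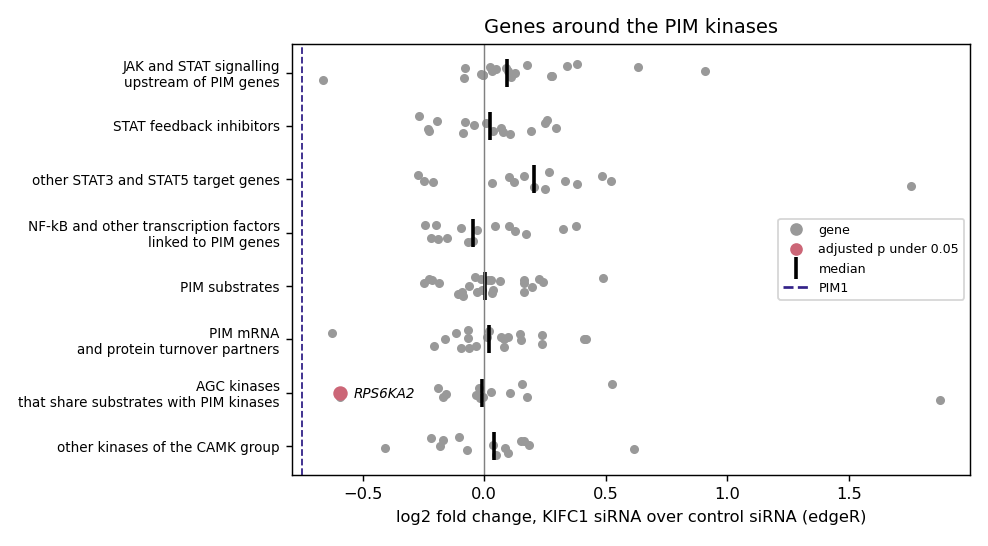
Log2 fold change after KIFC1 siRNA (horizontal axis) of the tested genes of 8 lists around the PIM kinases, each grey point a gene and each black tick the median of its list. *RPS6KA2*, in red at -0.59, is the 1 gene with an adjusted p under 0.05, and the dashed line marks *PIM1* at -0.75.

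The pattern of *PIM1* over the 6 libraries, which holds the group difference, was most like that of *GPR19*, an orphan receptor gene (Pearson's r = 0.996 of log2 CPM, among 11802 genes), *CDK2*, a cell-cycle kinase gene (0.995), and *ZCCHC3* (0.995). It was most opposed to that of *XPR1*, a phosphate exporter gene (r = -0.995), *HDX* (-0.993) and *RASGEF1A* (-0.991). *XPR1* was higher after KIFC1 siRNA (log2 fold change 0.60, adjusted p = 0.0429, edgeR). *PIM2* was most like *SPG21* (0.979), *CCNI* (0.978) and *SMU1* (0.972), and most opposed to *ERVK13-1* (-0.971), *KCNK5* (-0.966) and *WDR4* (-0.964). *PIM3* was most like *AP1S1* (0.999), *CAMKK1* (0.997) and *FDPS*, a gene of isoprenoid synthesis (0.996), and most opposed to *ZNF253* (-0.999), *ERCC6* (-0.998) and *RSF1* (-0.997). These are the extremes of 11802 genes over 6 shared libraries and are a description. The 3 members had no gene in common among these.

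The genes around each member on its chromosome are given as a description. *PIM1* was chosen for its fall, and 0.771% of all genes tested had a lower log2 fold change. Smaller changes nearby are therefore not a result about the neighbours. Within 250 kb of *PIM1* 5 of 14 annotated genes were tested, with log2 fold changes from -0.30 (*TBC1D22B*) to 0.03 (*TMEM217*). Around *PIM2* 15 of 32 were tested, from -0.21 (*HDAC6*) to 0.20 (*CCDC120*), and around *PIM3* 7 of 28 were tested, from -0.07 (*ZBED4*) to 0.14 (*PANX2*). Of these 27 neighbours 0 were called by edgeR, and 1, near *PIM1*, had an unadjusted p under 0.05. The background in edgeR was 48 higher (0.325%), 55 lower (0.372%) and 1369 with an unadjusted p under 0.05 among 14777 genes. Against these shares, 0 calls among 27 genes say little.

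Among 12972 tested genes with an annotated 3' UTR, 1163 (8.97%) held GAGATCT there, *PIM1* among them and *PIM2* and *PIM3* not. The search was on the transcribed strand only. Of the genes with the word 42 were lower (3.61%) and 4 higher after KIFC1 siRNA, with a median log2 fold change of -0.11. Of the 11809 genes without it 11 were lower (0.0931%) and 43 higher, with a median of 0.02. A log2 fold change below that of *PIM1* was found for 29 genes with the word (2.49%) and 53 without it (0.449%). The word was found in these same libraries by the fall of genes that hold it. The fall of *PIM1* chose the family. These differences therefore follow from those choices and are not support for the word. Genes with the word had longer 3' UTRs, with a median of 3420 bases against 1211, and that of *PIM1* has 1337. Whether the word has a part in the fall of *PIM1* was not tested, and the sequence of the siRNA is not given in the sources used here. GCAACC occurs in the 3' UTR of 23.2% of genes, with 1 copy in that of *PIM2* and 0 in those of *PIM1* and *PIM3*. Among the listed genes named above, GAGATCT also occurs once in the 3' UTR of *SOCS6*, and GCAACC occurs 2 times in those of *PRKAA1* and *REL* and once in those of *IFNAR2*, *SOCS6*, *CEBPB*, *NFATC1*, *ZFP36L2* and *ELAVL1*. Most of those genes were named by the size of their change. Listed genes not named above also hold 1 copy of GAGATCT there. They are *JAK2* (log2 fold change 0.03), *SOCS5* (0.08), *CDKN1B* (0.07), *SOCS4* (-0.04), *STK17B* (-0.17) and *FOXO1* (-0.23). The AU-rich pentamer ATTTA, found in many short-lived messages, occurs 5 times in the 3' UTR of *PIM1*, 2 times in that of *PIM2* and 4 times in that of *PIM3*, and at least once in 73.4% of genes.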

How the data were processed

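RNA of H146 cells was sequenced in 6 libraries, 3 with control siRNA and 3 with KIFC1 siRNA, grouped by their labels. The authors aligned reads to GRCh38 with HISAT2 (2.2.1) and deposited raw counts per gene from featureCounts (2.0.8), and their notes name DESeq2 (1.46.0) and R (4.4.2). The annotation and strand setting are not given in the sources used here, so gene lengths from GENCODE 44 are approximations. Of 28395 NCBI gene IDs, 27745 (97.7%) matched a RefSeq symbol.

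Genes were kept by filterByExpr, with *KIFC1* kept as well (14777 genes), scaled by TMM and tested with edgeR's (4.0.16) quasi-likelihood test and Benjamini-Hochberg adjustment over all genes kept, at a threshold of 0.05. The common biological coefficient of variation was 13.1%. Alternatives were DESeq2 (1.42.0), limma-voom (limma 3.58.1), a replicate block, the DESeq2 size factors, scaling by library totals alone, dropping the filter, requiring 10 counts or more throughout, and omission of single libraries. Levels between genes were TMM-scaled CPM per kilobase of the union of exons. On simulated counts for 14777 genes, 164 of 200 genes changed by a log2 of 1 were recovered with 7 false calls. The simulated libraries were drawn independently, so they lack the shared deviations of replicate numbers given below. Smaller changes were not simulated, so the recovery does not apply to them.

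The members, lists and words were chosen with earlier results of these data known. Named genes were the 3 members, *KIFC1*, in each list those past the threshold and the 3 with the largest absolute change, and for each member the 3 genes most and the 3 least correlated with it, where the latter 2 rules took genes whose mean log2 CPM reached 2. A gene that these rules take and a marker value are not reported here. Libraries of the same replicate number deviated together from their group means (r = 0.484, 0.414 and 0.491 over 11758 genes, against -0.457 to 0.0234 for different numbers). The labels do not say that the numbers are pairs. The main fit left this pairing out, so its standard errors, intervals and calls do not take it into account. Among the fits only the replicate block used it. Labels call the replicates biological without naming separate cultures, so p-values measure the spread between these libraries.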

Additional observations from a re-analysis of the deposited data

How the results depend on the processing

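The log2 fold change of *PIM1* was -0.84 to -0.61 with each library left out and -0.76 to -0.75 under the other alternatives. Those of *PIM2* and *PIM3* passed the threshold under none of the 13 alternatives, with adjusted p of 0.775 to 1.00 and of 0.135 to 1.00. With a library left out they were -0.0084 to 0.20 for *PIM2*, below 0 without control siRNA replicate 3, and -0.053 to 0.29 for *PIM3*, below 0 without KIFC1 siRNA replicate 2. Under the other alternatives, which include every scaling, they were 0.08 to 0.10 and 0.06 to 0.09. The replicate block gave 0.10 and 0.06 and changed neither call. The share of *PIM1* in the control sum was 61.3% with no length. Over all genes, the counts higher and lower were 123 and 140 with DESeq2, 121 and 144 with no filter, 407 and 454 with the replicate block, and 9 to 194 and 15 to 274 with a library left out, most without KIFC1 siRNA replicate 3. Of the listed genes, the counts higher were 2 with DESeq2, 3 with no filter and 8 with the block, and 0 to 3 with a library left out, above 0 without KIFC1 siRNA replicate 2 (2) or 3 (3). The counts lower were 2 with the block and 0 to 1 with a library left out. The cause of these moves was not tested. The part of the *PIM1* fall met by *PIM2* and *PIM3* was 10.1% to 13.0% under another length or scaling, and its alternatives were added after the data were seen, as was the scaling by library size for the correlations. At 193 to 234 counts, *PIM2* is the member limited most by depth.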
